A study of Mus musculus with 9 samples.

Results

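Repeat-made differentially methylated regions (DMRs) were those listed regions on autosomes in which at least 90% of the bases are soft-masked, that is written in lower case as repeats, in the GRCm38 (mm10) reference, and which hold at least 0.5 CpG per 100 bp. There were 366 of them among 12845 listed DMRs on autosomes and 12949 in all. The DMRs came from methylated DNA immunoprecipitation sequencing (meDIP-seq), in which an antibody against methylated cytosine pulls down DNA fragments that are then sequenced. The tissue was the hypothalamus of male C57/Bl6 pups on postnatal day 6, from control pups and from pups given modified maternal separation (MMS), in which they lay on a heating pad outside the home cage for 1.5 h on each of postnatal days 4 to 6 and were turned on their backs each time they righted themselves. DNA of 10 animals per group was combined into 3 pools per group, with 2 input libraries and 1 IgG library beside them, whose labels name the same methylcytosine antibody.

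Each DMR has 1 mean for control and 1 for MMS, as the log2 of normalised reads, and no value for single pools. No spread between pools could therefore be computed, and no test between the groups was run. The study states a range of reads per library, but the table does not give the reads of each pool at a DMR. Every DMR was listed because it passed the authors' own test at a false discovery rate of 0.05, so that directions and sizes below are descriptions of listed regions. The lowest mean listed was -0.17 for control and -0.24 for MMS. Where the lower group sat at this floor, the size of the difference reflects the floor as well as the reads of the higher group. Means up to 0.5 above it were also counted as being at the lowest value.

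Repeats in the mouse genome are of a few kinds. Satellites are short units repeated head to tail in long arrays near centromeres. LINE elements are long, code for the proteins that copy them and begin with an array of promoter units, whereas LTR elements carry the same direct repeat at both ends, and SINEs such as B1 are short and are copied by the machinery of LINEs. In most tissues their CpG sites are heavily methylated, and methylation is known as one of the ways by which their transcription is kept low. When many copies are near-identical, a short read cannot be given a single place of origin.

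Sequences of 6 repeat-made DMRs are shown from the GRCm38 reference, plus strand, 5′ to 3′, with CpG sites in capitals, because they show the kinds of repeat to which the results refer. The first is a 234-base unit from an array at the start of the assembled sequence of chromosome 9, and the next is the DMR with the largest difference of all repeat-made DMRs, which aligned to the same array on the opposite strand at 93.6% identity over 265 bases. Both were higher in MMS.
chr9:3027281-3027514 (within the DMR chr9:3027169-3029058): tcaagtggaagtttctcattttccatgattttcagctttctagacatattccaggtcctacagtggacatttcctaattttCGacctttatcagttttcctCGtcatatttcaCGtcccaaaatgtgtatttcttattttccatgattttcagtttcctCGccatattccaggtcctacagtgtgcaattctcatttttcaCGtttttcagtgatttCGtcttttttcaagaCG
chr9:35305314-35305578 (whole DMR): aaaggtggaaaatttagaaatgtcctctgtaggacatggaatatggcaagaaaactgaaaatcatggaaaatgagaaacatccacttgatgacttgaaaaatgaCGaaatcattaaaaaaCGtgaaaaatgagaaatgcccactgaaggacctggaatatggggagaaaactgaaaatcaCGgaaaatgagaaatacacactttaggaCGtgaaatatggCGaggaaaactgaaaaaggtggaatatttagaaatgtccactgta

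The next pair lies in arrays of a 208-base unit at the ends of long masked tracts. The DMR on chromosome 10 was higher in MMS and the DMR on chromosome 1 was higher in control, although the 2 sequences were 96.5% identical over 578 bases on opposite strands. The printed stretches, both of the plus strand, therefore match as reverse complements. Their 208-base stretches with the most CpG hold 16 and 13 CpG sites.
chr10:110016447-110016654 (within chr10:110015848-110016717): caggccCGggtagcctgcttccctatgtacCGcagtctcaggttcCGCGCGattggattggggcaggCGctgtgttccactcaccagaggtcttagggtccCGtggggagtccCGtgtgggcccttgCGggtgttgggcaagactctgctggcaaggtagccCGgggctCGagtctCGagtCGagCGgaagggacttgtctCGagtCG
chr1:20574495-20574702 (within chr1:20574460-20575073): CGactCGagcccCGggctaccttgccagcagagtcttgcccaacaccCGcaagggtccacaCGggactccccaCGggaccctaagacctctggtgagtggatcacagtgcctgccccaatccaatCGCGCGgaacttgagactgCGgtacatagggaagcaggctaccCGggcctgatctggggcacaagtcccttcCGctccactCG

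The last pair match the B1 SINE. The chromosome 8 DMR has the largest number of similar places in the genome, and the other is a stretch of a DMR in the promoter of Tacr3, the receptor for neurokinin B.
chr8:35067356-35067511 (whole DMR): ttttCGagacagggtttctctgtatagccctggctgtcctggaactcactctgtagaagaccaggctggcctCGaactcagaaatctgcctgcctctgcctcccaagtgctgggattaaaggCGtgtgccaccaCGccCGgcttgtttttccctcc
chr3:134828103-134828402 (within chr3:134828103-134828473): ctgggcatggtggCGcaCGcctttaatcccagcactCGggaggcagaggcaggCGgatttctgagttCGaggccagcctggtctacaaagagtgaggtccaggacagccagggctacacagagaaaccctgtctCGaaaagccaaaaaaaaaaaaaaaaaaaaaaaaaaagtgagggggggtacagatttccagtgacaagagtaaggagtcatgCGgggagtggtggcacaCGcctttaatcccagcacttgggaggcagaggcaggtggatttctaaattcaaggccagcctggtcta

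Of the 366 repeat-made DMRs, 282 (77%) were higher in MMS and 84 were higher in control, against 62.4% higher in MMS among all listed autosomal DMRs. Among the 282, the MMS mean ran from 2.97 to 7.97 with a median of 3.65, while the median control mean was at the lowest value, -0.17. Their median difference, MMS minus control, was 3.47, close to the 3.43 of all listed autosomal DMRs higher in MMS. Control was at its lowest value in 202 of them (71.6%), against 52.6% of all listed autosomal DMRs higher in MMS. Among the 84 higher in control, the control mean ran from 3.05 to 6.20 with a median of 4.26, and the median MMS mean was 1.42. Their median difference was -2.62, against -1.73 for all listed autosomal DMRs higher in control, and MMS was at its lowest value in 13 of them (15.5%), against 4.61%.

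**Figure D1:**
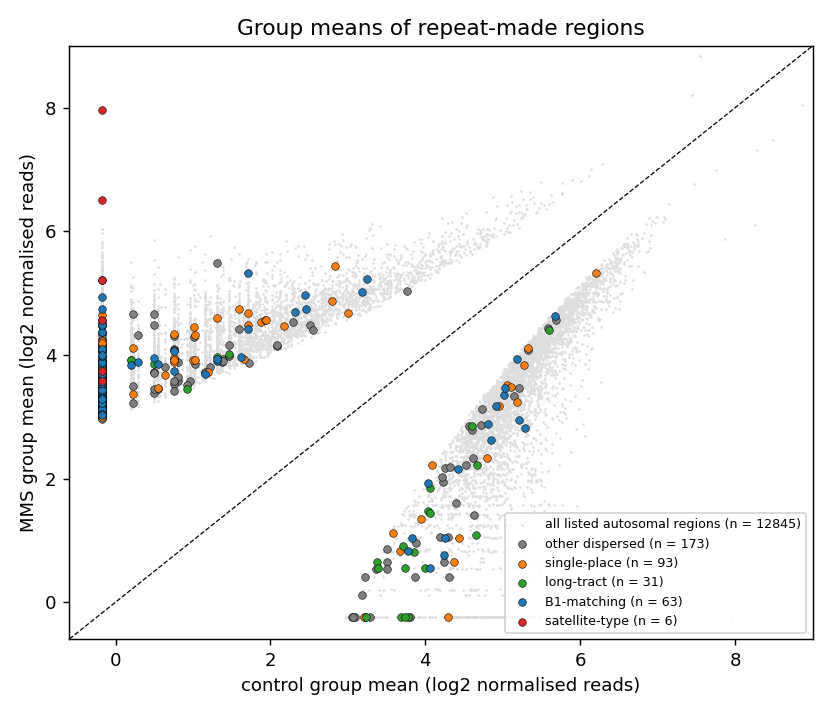
Control mean against MMS mean, both in log2 normalised reads, with repeat-made DMRs coloured by kind over all listed autosomal DMRs in grey and equality as a dashed line; 3 grey regions lie beyond the axes. The 282 repeat-made DMRs above the line crowd at the lowest control value of -0.17, and the largest difference is a satellite-type DMR at 7.97 in MMS.

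Repeat-made DMRs had a lower median level than all listed DMRs, and the level moved with the direction. The median over all libraries was 2.89, against 3.73 for all listed autosomal DMRs. When DMRs were grouped by the higher of their 2 group means, a grouping chosen after seeing the data, 4 levels from 3 upwards held 362 of the 366. An excess of MMS-high DMRs over all listed ones was seen at only 1 of these levels, 4.5 and over. There, 30 of 63 repeat-made DMRs (47.6%) were higher in MMS, against 35.6% of all. Between 3 and 3.5 the shares were 89.4% of 113 repeat-made DMRs and 96.8% of all. Between 3.5 and 4 they were 85.8% of 120 and 95.3%, and between 4 and 4.5 they were 66.7% of 66 and 83.9%. At each of these 3 lower levels, then, a larger part of repeat-made DMRs than of all DMRs was higher in control. The share of MMS-high DMRs with control at its lowest value was 94.1% in repeat-made against 93.5% in all DMRs between 3 and 3.5, and 65% against 69.2% between 3.5 and 4. At higher levels it was larger in repeat-made DMRs, at 56.8% against 46.3% between 4 and 4.5 and 36.7% against 20.1% at 4.5 and over. Among control-high DMRs, MMS was at its lowest value in 66.7% of 12 repeat-made DMRs against 73.8% of all between 3 and 3.5. Between 3.5 and 4 the shares were 23.5% of 17 and 22.1%, and between 4 and 4.5 they were 4.55% of 22 and 10.5%. At 4.5 and over they were 0% of 33 and 2.88%. The larger share over all levels (15.5% against 4.61%) was thus not seen within most levels.

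Repeat content and direction changed together mainly at its upper end. Of listed autosomal DMRs with at least 0.5 CpG per 100 bp, 64% were higher in MMS where under 10% of the bases were masked, 58.2% where 10 to 30% were, and 65.4% where 70 to 90% were. The share of control-high DMRs with MMS at its lowest value went from 3.43% in the least masked to 10.9% at 70 to 90% and 15.5% in the repeat-made DMRs. The level changed as well. The median of the higher group mean was 4.58 under 10%, 4.71 at 10 to 30%, 4.13 at 70 to 90% and 3.77 in the repeat-made DMRs. Masking and level were not separated here. The least masked repeat-made DMRs, at chr1:13137487-13137806 and chr3:41441855-41442034, had means of -0.17 and 5.01 in control and 4.94 and 3.35 in MMS. The most masked DMRs just outside the limit (89.9%), at chr1:45062382-45062560 and chr18:36862068-36862364, had -0.17 and 4.79 in control and 3.07 and 1.24 in MMS.

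**Figure D2:**
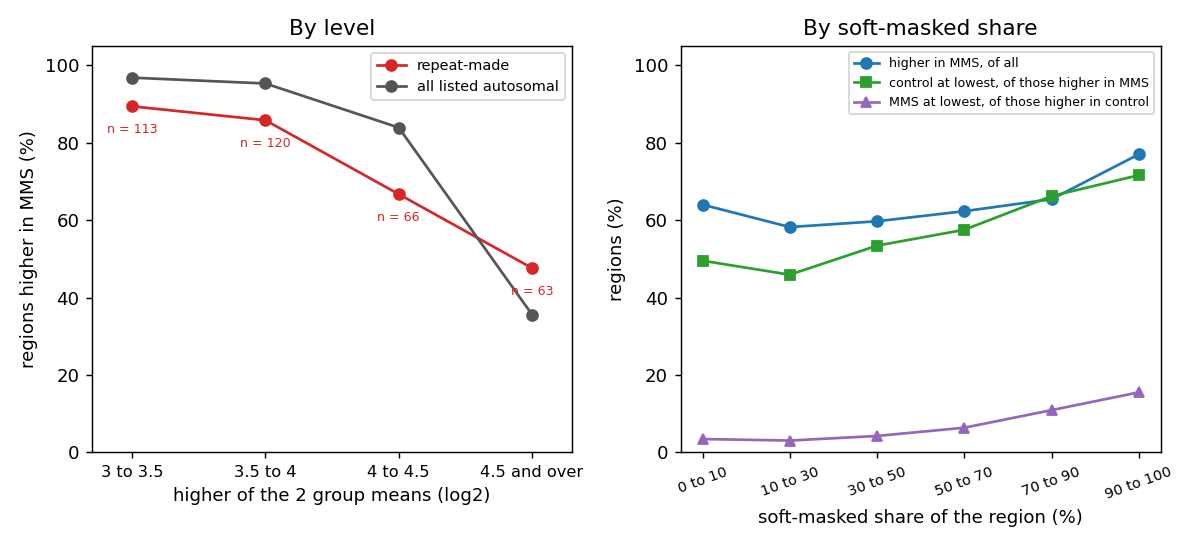
Left, the share of DMRs higher in MMS by the higher of the 2 group means (log2, from 3 upwards) for repeat-made DMRs (red, with their number) and all listed autosomal DMRs (grey). Right, by soft-masked share of the region, the share of DMRs higher in MMS and the shares with the lower group at its lowest value; from 3 to 4.5 repeat-made DMRs are below the grey line and beyond 4.5 they are over it, at 47.6% against 35.6%.

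In sequence, repeat-made DMRs were 147 to 4689 bp wide with a median of 407 bp, against 544 bp for all listed autosomal DMRs, and covered 219233 bp and 3693 CpG sites in all. They held a median of 1.44 CpG per 100 bp, and every base was masked in 87. The median of all listed autosomal DMRs was 1.32, but these include DMRs under the limit of 0.5 that repeat-made DMRs had to meet. With that limit applied, less masked DMRs had medians from 1.26 (50 to 70% masked) to 1.56 (under 10% masked). The higher the CpG density of repeat-made DMRs, the fewer were higher in MMS. The shares were 101 of 121 (83.5%) from 0.5 to 1 CpG per 100 bp, 115 of 140 (82.1%) from 1 to 2, 38 of 55 (69.1%) from 2 to 3 and 28 of 50 (56.0%) at 3 and over. Among all listed autosomal DMRs the same 4 shares were 68.0%, 59.7%, 58.8% and 55.4%. The DMR with the most CpG was chr10:110015848-110016717, in an intron of Nav3, a gene of the neuron navigator family, with 6.44 per 100 bp, a control mean of -0.17 and an MMS mean of 3.21. The next, chr16:5642754-5643117, was intergenic with 5.77 per 100 bp and had -0.17 in control and 2.99 in MMS.

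How far a repeat-made DMR could be told from other places depended on the length of sequence compared. Every 100-base window of the sequence occurred once in the reference, on either strand, in 207 of the 366 (56.6%), against 92.6% of all listed autosomal DMRs. With windows of 50 bases the share of repeat-made DMRs was 8.47%, and with 150 bases 77.5%. Among these 207, 163 (78.7%) were higher in MMS, and among the 159 with repeated windows 119 (74.8%) were. MMS was at its lowest value in 6.82% of the 44 control-high DMRs with all windows found once and in 25% of the 40 with repeated windows. The number of places in the reference that matched a repeat-made DMR at 90% identity over at least 80% of its length, itself included, had a median of 37. It was 1 in 120 DMRs, 100 or more in 160 and 1000 or more in 98.

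The repeat-made DMRs were sorted, after seeing the data, into 5 kinds. These were 6 satellite-type DMRs joined by sequence similarity, 63 that match the B1 element of the reference annotation over at least 100 bases, 31 in an unbroken masked tract of at least 5 kb, 93 of the remaining DMRs with 1 matching place by the limits above, and 173 others, called other dispersed repeats. A further 27 DMRs with 1 matching place belong to the first 3 kinds. The shares higher in MMS were 100% (6 of 6), 74.6% (47 of 63), 45.2% (14 of 31), 82.8% (77 of 93) and 79.8% (138 of 173). The long-tract DMRs were thus the kind with the smallest share higher in MMS. Members of a kind share sequence and are not independent of each other.

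**Figure D3:**
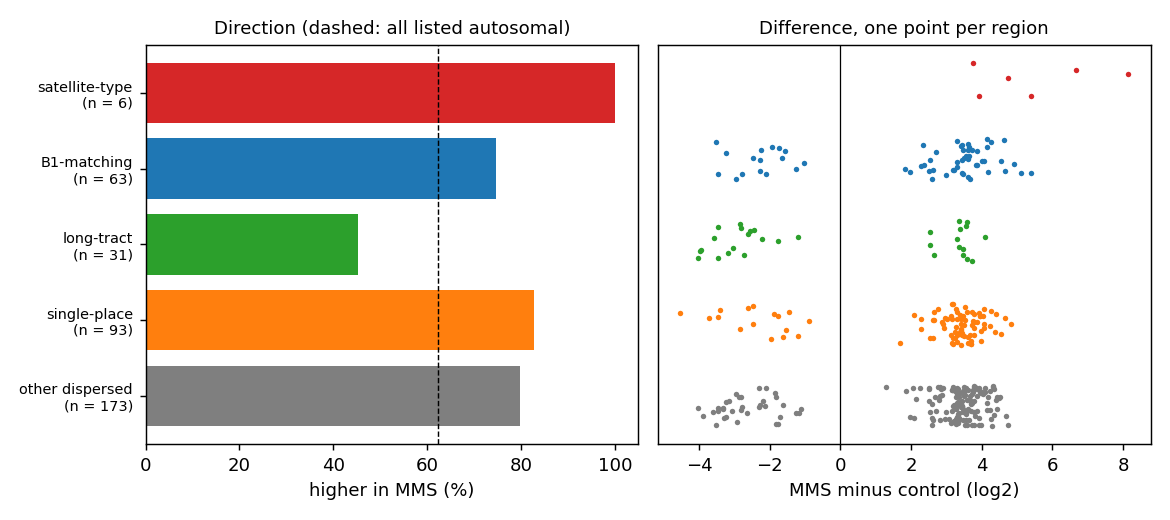
Left, the share of DMRs higher in MMS for each of the 5 kinds, with the 62.4% of all listed autosomal DMRs as a dashed line. Right, the log2 difference, MMS minus control, of each DMR, where all 6 satellite-type DMRs lie between 3.75 and 8.14 and the long-tract DMRs are split, 14 above and 17 below zero.

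All 6 satellite-type DMRs were higher in MMS, and control was at its lowest value of -0.17 in each. Of the 6, 4 lie next to the assembly gap at the start of chromosome 9, whose first known base is 3000001. Their MMS means were 5.22 at chr9:3000122-3004810, 3.58 at chr9:3005786-3008670, 3.74 at chr9:3027169-3029058 and 6.51 at chr9:3033712-3036432. The first 2 are also the widest of all repeat-made DMRs, at 4689 and 2885 bp. They lie in the predicted genes Gm10722, Gm11168, Gm10717 and Gm17535, where the centre of chr9:3033712-3036432 is annotated as coding exon of Gm17535 and that of chr9:3000122-3004810 as promoter of Gm11168. Away from the gap, chr9:35305314-35305578, in an intron of a noncoding gene, reached 7.97 in MMS, the highest mean of any repeat-made DMR, and intergenic chr3:56575486-56575774 reached 4.57.

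The satellite-type DMRs were AT-rich, with a median GC content of 34.9%, against 44.6% in all repeat-made DMRs. In chr9:3027169-3029058 the sequence matched itself at 91.8% of bases when shifted by 234 bases, the strongest tandem match of all repeat-made DMRs. AT-rich tandem DNA with a unit of 234 bases is known in mouse as the major satellite of pericentromeric chromatin. The DMR shares 406 exact 100-base windows with chr9:3033712-3036432, whereas the latter shares none with chr9:35305314-35305578 and aligned to it at 91.0% identity over 266 bases. Most copies of such a satellite are outside assembled chromosomes, so that reads of many copies can fall on few places. Whether the number of copies that reads came from differed between the pools was not tested, since the table holds no input values.

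**Figure D4:**
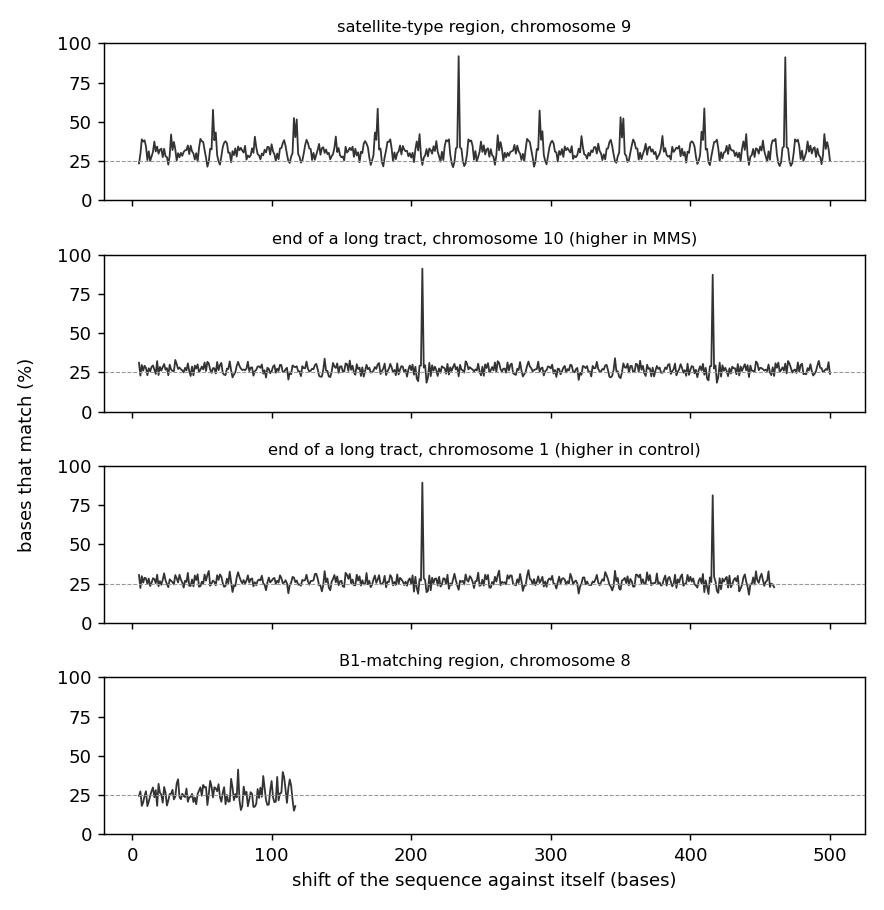
Share of bases that match when the sequence of a DMR is shifted against itself, by shift in bases, with 25% as a dashed line. The satellite-type DMR peaks at 234 bases and its multiple, both long-tract DMRs peak at 208 bases whichever group was higher, and the B1-matching DMR has no such peak.

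The 31 long-tract DMRs lie in masked tracts with a median length of 6460 bp, and 28 of them cover an end of the tract. None had all windows found once, and their median number of matching places was 1175. Of the 31, 14 were higher in MMS and 17 in control, with median means of -0.17 and 3.42 in the former (control and MMS) and 3.85 and 0.81 in the latter. By structure, 9 tracts carried direct repeats of at least 200 bases that start at least 4000 bases apart, a feature of LTR elements. Of these 9 DMRs, 7 were higher in control. Whether the repeats lie at the tract ends was not checked. The tract of chr7:17188222-17190214, counted here, also met the limit for the arrays below, with a self-match of 46.3% at a shift of 201 bases. Another 7 held an array of units of 201 to 208 bases at one end, the layout of a LINE promoter, and 4 of these were higher in control. Of the remaining 15, 6 were higher in control. The arrays were sought in the outer 1500 bases of each tract, and 3 of these 15 DMRs had a period of this kind in their own sequence, 2 of them higher in control.

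A set of 5 long-tract DMRs was made of the one with the largest difference in favour of control and the 4 that share exact windows with it, so that the direction of the first was fixed by the choice. The 5 belong to the group of 43 described below, whose directions were divided. They lie at chr1:81564112-81564974, chr5:39224763-39225554, chr6:79898719-79899840, chr9:84219701-84220910 and chr10:78816363-78817273, outside protein-coding genes. Every pair shared between 64 and 409 exact 100-base windows, and their longest alignments were 94.9 to 98.6% identical. In that order, their control means were 3.78, 3.85, 4.03, 3.71 and 3.69 and their MMS means -0.24, 0.81, 1.47, 0.91 and -0.24. The control values lay within 3.69 to 4.03, and all 5 were lower in MMS, with differences of -4.02 to -2.56. Of their tracts, all but that on chromosome 9 carried direct repeats of the kind above, of 338 to 354 bases with at least 99.4% identity between the copies. Reads from shared windows can be placed on any of these copies, so the 5 are not 5 separate observations.

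Not every shared sequence had a shared direction. The DMRs with the 208-base unit printed above, in an intron of Pkhd1 on chromosome 1 and of Nav3 on chromosome 10, had 3.23 in control and -0.24 in MMS, and -0.17 in control and 3.21 in MMS, respectively. They were thus at the lowest value in opposite groups. They shared no exact 100-base window. The other 3 long-tract DMRs with a 208-base period were all higher in control. They were chr10:42374498-42376582, in an intron of Afg1l, with 4.06 in control and 1.44 in MMS, intergenic chr7:123605658-123606569, with 3.39 and 0.55, and intergenic chr7:10314806-10315511, with 3.74 and 0.55. Their longest alignments to the Nav3 DMR were 97.5, 92.8 and 92.8% identical. The Afg1l DMR shared 36 exact 100-base windows with the Nav3 DMR and yet had the opposite direction. A 409-base period was found in chr1:148080961-148082193, an intergenic DMR with 5.60 CpG per 100 bp, which had 3.51 in control and 0.65 in MMS.

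**Figure D5:**
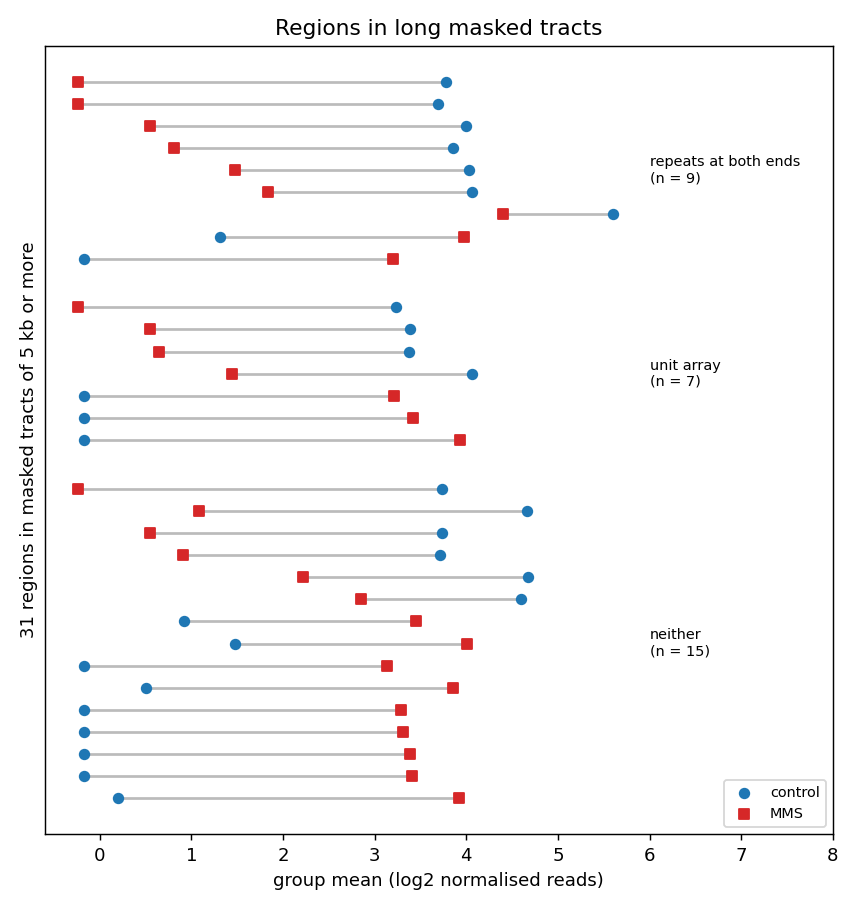
Control (blue circles) and MMS (red squares) means in log2 normalised reads for each of the 31 DMRs in masked tracts of 5 kb or more, joined by a line and grouped by the structure of the tract. In the group labelled repeats at both ends, 7 of 9 DMRs have the control point to the right. These tracts hold direct repeats that start at least 4000 bases apart, wherever in the tract they lie. The control point is to the right in 4 of 7 with a unit array at a tract end and 6 of 15 with neither by the limits used.

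Over all kinds, 61 repeat-made DMRs shared at least 1 exact 100-base window with another, in 5 groups. The largest group had 43 DMRs, 23 higher in MMS and 20 in control. The others had 6, 5, 4 and 3 DMRs, of which 4, 4, 4 and 3 were higher in MMS. Of 119 pairs that shared a window, 80 (67.2%) had the same direction. By overall similarity (80% identity over at least 50% of the shorter), 296 DMRs were chained into 1 family by single linkage. The next family had 12 DMRs and was evenly divided, with 6 higher in each group. Its lowest MMS mean was -0.24 at intergenic chr3:137257885-137258288, which had 3.80 in control, and its highest was 4.31 at chr12:115094119-115095821, which had 0.75 in control.

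B1-matching DMRs made up 17.2% of repeat-made DMRs, against 8.49% of all listed autosomal DMRs. Since repeat-made DMRs were chosen for their masked bases, this contrast is tied to the rule and is not a separate result. The B1-matching DMRs had a median width of 177 bp and a median of 1.88 CpG per 100 bp. All 12 repeat-made DMRs with the most matching places were of this kind. Among them were chr8:35067356-35067511, which matched 66353 places, and chr11:29377029-29377182, in an intron of the actin-binding protein gene Ccdc88a, which matched 54655. Control was at -0.17 in both, and the MMS means were 3.68 and 3.32. Even so, every 100-base window of both occurred once in the reference. Of the 12 B1-matching DMRs with over 30000 places, 10 were higher in MMS. The exceptions were chr15:35926541-35926691, in introns of Cox6c and Vps13b, with 4.03 in control and 1.93 in MMS, and chr16:59716797-59716952, in an intron of the ephrin receptor gene Epha6, with 3.83 and 1.04. In B1-matching DMRs that were higher in control, MMS was at its lowest value in 0 of 16, and their median means were 4.83 in control and 2.71 in MMS. The largest B1-matching difference was at chr13:37146959-37147588, intergenic, with -0.17 in control and 5.22 in MMS.

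The 93 single-place DMRs matched no other place at 90% identity over at least 80% of their length, but shorter parts could occur elsewhere. Every 100-base window was found once in 66 of them, and 27 held repeated windows, found up to 4963 times. Of the 93, 77 were higher in MMS, with medians of -0.17 in control and 3.76 in MMS, and 16 higher in control, with medians of 4.62 and 2.28. The largest difference in favour of control among all repeat-made DMRs was of this kind, at chr9:116729340-116729499 in an intron of the RNA-binding protein gene Rbms3, with 4.29 in control and -0.24 in MMS. The highest control mean of any repeat-made DMR that was higher in control, 6.20, was at intergenic chr4:7937647-7937849, where MMS had 5.32, a difference of -0.88. This was the smallest control-high difference in the set. The next highest, intergenic chr11:90434643-90434795 and chr11:95016828-95017002 in an intron of Samd14, had 5.69 and 5.67 in control and 4.57 and 4.63 in MMS.

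Among DMRs with every 100-base window found once and the lower group above its lowest value, the largest differences in favour of MMS were as follows. The 2587-bp DMR chr15:18783813-18786399, in an intron of a noncoding gene, had 1.31 in control and 5.49 in MMS. Intergenic chr8:30607126-30607567 had 0.50 and 4.66, and the Tacr3 promoter DMR had 1.71 and 5.32. In favour of control, chr15:37893643-37893868, in an exon of a noncoding gene, had 4.30 in control and 0.41 in MMS. Another, at chr5:63072673-63073140, had 4.37 in control and 0.65 in MMS.

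A smaller share of repeat-made DMRs than of all listed autosomal DMRs lay in genes. By its centre, 66.9% of repeat-made DMRs were intergenic, 30.6% intronic and 2.46% exonic, against 43.5%, 49.8% and 6.70% of all listed autosomal DMRs. Of the 366, 90 (24.6%) overlapped a protein-coding gene, against 49.5%, and 68 of these 90 (75.6%) were higher in MMS, against 61.8% of all listed autosomal DMRs in protein-coding genes. Chromosomes carried between 9 and 36 repeat-made DMRs, which made up from 1.54% of the listed DMRs of chromosome 11 to 4.29% of those of chromosome 9. All 20 on chromosome 13 were higher in MMS, a count singled out after seeing the values, against 64.4% of the 579 listed DMRs there.

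At promoters, UTRs and coding exons of protein-coding genes, 8 repeat-made DMRs (2.19%) were found, all higher in MMS. Of all listed autosomal DMRs, 816 (6.35%) lay at these features, and 61.6% of the 816 were higher in MMS. Beside the pair in Gm11168 and Gm17535, 4 lay in promoters. The Tacr3 promoter DMR, 534 bp from the gene, was the one with a higher MMS mean (5.32) than the other promoter DMRs outside the satellite and also had reads in control (1.71). The promoter DMR of the predicted gene Gm13547 (chr2:29760521-29760933) had 0.75 in control and 4.34 in MMS. Those of Polq (chr16:37085713-37086259), which encodes DNA polymerase theta of end-joining repair, and Nfu1 (chr6:87009183-87009406), an iron-sulfur cluster scaffold of mitochondria, had -0.17 in control and 3.86 and 3.13 in MMS. In UTRs, the DMR in Tmem245 (chr4:56870586-56870761) had 0.29 and 3.89, and that in Tprkb (chr6:85928867-85929034), which encodes a subunit of a tRNA-modifying complex, had -0.17 and 3.29. Both UTR DMRs matched B1, at 3064 and 49558 places.

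Of 89 protein-coding genes with a repeat-made DMR, few had more than 1. In Cpa6, a carboxypeptidase gene, both intronic DMRs were higher in MMS, with 0.20 in control and 3.92 in MMS at chr1:10533145-10535206, and 0.81 and 3.58 at chr1:10663403-10663593. Gm11168, with its satellite-type DMRs, also had 2.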

How the data were processed

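MeDIP-seq of 3 control and 3 MMS pools was analysed from 1 table. Alignment by the authors was to mm10 in Torrent Suite, and broad peaks came from MACS2 over inputs (version 2.1 in the submitters' processing notes). Groups were compared in DiffBind and DMRs annotated with HOMER 4.8. The methods also state normalisation to the pooled input of each group and subtraction of the IgG control, and how this entered the lowest values (-0.17 and -0.24) is not given in the sources used here. The deposited values are log2 means of normalised reads over all libraries, control (untreated in the header) and MMS (treated). The deposited p-value, FDR and log2 fold columns hold the authors' own comparison and were not used, beyond checking that every FDR is 0.05 or lower. Columns of single samples outside this design numbered 0.

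Soft-masking, CpG and sequence came from the RefSeq GRCm38.p6 genome (33.5% of autosomal bases masked; the masking program is not given in the sources used here) and genes from GENCODE M21. Promoters spanned 1000 bp upstream to 100 bp downstream. Exact windows of 100 bases were counted on both strands, tested on simulated data. Places and families came from BLAST 2.17.0. A B1 match needed 100 bases at 70% identity to the RefSeq-annotated element. Direct repeats in long tracts needed 200 bases at 85% identity, starting at least 4000 bases apart, and their distance from the tract ends was not limited. A tract with both such repeats and a unit array was counted with the direct repeats. Unit arrays needed a self-match of 40% at a shift of 190 to 220 within the first or last 1500 bases of a tract.

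Named DMRs follow a rule: the 3 largest differences and 3 highest means in each direction, the 2 widest, the 2 with most CpG, the 3 largest differences in each direction with all windows once and the lower group off its lowest value, the 3 with most places, the 2 strongest tandem repeats, large families, and those in protein-coding promoters, UTRs, coding exons or genes with most DMRs. Others were chosen after their values were seen, and some that the rule names are not reported here. The members and lists were chosen with earlier results of these data known. No test was computed, because the table holds group means alone, and 3 pools per group limit precision. Python 3.11.15, numpy 2.4.6, pandas 2.3.3, numba 0.67.0, scipy 1.17.1 and matplotlib 3.10.9 were used.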

Additional observations from a re-analysis of the deposited data

How the results depend on the processing

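No paired analysis was possible because the deposited table holds group means and no column for a pool, and no pool could be left out for the same reason. The share higher in MMS (77%) stayed within its 95% exact binomial interval (counting error only, with DMRs that share sequence taken as independent) with a masked share of at least 80% or 100%, other CpG limits, all chromosomes, unique windows alone, or (added after seeing the data) without window-sharing or without satellite-type and long-tract DMRs. It was 82.4% among differences of at least 2, and by level 89.4%, 85.8%, 66.7% and 47.6%. Within 1 of the lowest value, control was counted there in 81.9% and MMS in 31%. These alternatives hold many of the same DMRs. The median differences moved within their intervals. All windows were found once in 8.47% of DMRs at 50 bases and 77.5% at 150, and the median share of windows found once was 68.3% at 50. Families numbered 7 at the main limits and 13 at either stricter one. Exonic DMRs were 4.64% by any overlap. The reads of each pool at a DMR are not in the table, which limits every value, and the causes of these shifts were not tested.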

Other observations

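Listed regions with at least 90% masked bases but fewer than 0.5 CpG per 100 bp numbered 69 on autosomes, and 57 of them (82.6%) were higher in MMS, with median means of -0.17 in control and 3.55 in MMS. On chromosome X, 6 regions met both limits, and all 6 were higher in MMS, with control at its lowest value in 5.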
